A study of Mus musculus with 33 samples.

Results

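The 682 genomic regions described here were bound by Gata4, and by neither Mef2c nor Tbx5, in cells given all 3 factors, and fell below the binding threshold for Gata4 in cells given Gata4 alone. They were 682 of the 30815 regions measured, or 2.21%. For each factor the read counts of a group were summed, scaled by the group's total over the 30815 regions to counts per 1000000 (CPM), and compared with the CPM of all 9 input libraries summed in the same way. The log2 enrichment is log2((CPM + 5)/(input CPM + 5)), and a region was called bound from a 1.5-fold excess over input upwards, a threshold of about 0.58 on this scale. Of all regions, 6117 were bound by Gata4 in the 3-factor cells. Neither of the other factors bound 3260 of these, 2578 of which were also bound in the Gata4-alone cells and are called the kept regions below. The remaining 682 are called the gained regions. With trimmed-mean (TMM) scaling of the totals the same rule gave 263 regions, of which 135 were among the 682. Since these enrichments chose the regions, they are given as a description and without a test.

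The cells were an immortalised mouse neonatal cardiac fibroblast line of Cd-1 strain, which carries an alpha-MHC-GFP reporter and a large T antigen that cre can remove. The 3-factor cells received retroviruses for Gata4, Mef2c and Tbx5 together, and the single-factor cells they were set against received a retrovirus for 1 factor, so every factor measured was expressed from a virus. All groups, inputs included, were also cultured with sb431542, an inhibitor of TGF-beta receptor signalling, and xav939, which inhibits Wnt signalling. Unsorted cells were collected on day 2. The 33 chromatin immunoprecipitation (ChIP) and input libraries comprised 6 Gata4, 4 Mef2c, 4 Tbx5 and 6 input libraries from 3-factor cells, and 4 Gata4, 3 Mef2c, 3 Tbx5 and 3 input libraries, 1 per factor, from single-factor cells. All came from 1 cell line and the cells were not sorted for infection, so more bound cells and more binding per cell cannot be told apart. Nothing in the labels gave a cell type marker to check in ChIP counts.

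Gata4 is a zinc finger transcription factor of the GATA family, Mef2c is a MADS-box factor and Tbx5 is a T-box factor. Each of the 3 is needed for heart development, and together they turn cardiac fibroblasts towards a cardiomyocyte-like state, the procedure known as direct cardiac reprogramming. GATA factors can bind sites in closed chromatin, and Gata4 and Tbx5 are known to bind each other and to share many enhancers in cardiomyocytes. The comparison between 3-factor and single-factor cells asks where the binding of one factor changes when the others are present.

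Samples held 97474 to 2377616 counts over the 30815 regions, with 352015 to 1369396 for Gata4 in 3-factor cells and 222761 to 591033 for Gata4 alone. Gata4 libraries 1 and 6 of the 3-factor cells did not differ beyond sampling noise (p = 0.0785 in a chi-square test of their counts, statistic over degrees of freedom 1.01) and were counted as 1 sample, which left 5 Gata4 samples. The 6 inputs of the 3-factor cells were counted as 3 samples for the same reason. Counts on the Y chromosome set Gata4 libraries 1, 3 and 6 of the 3-factor cells, at 138 to 210 CPM, apart from libraries 2, 4 and 5, at 1.06 to 25.6 CPM. The 3-factor inputs split by the same numbers, at 37.5 to 43.1 CPM against 0 to 10.3 CPM. Of the 3-factor Mef2c and Tbx5 libraries, number 3 had 11.75 and 11.65 CPM and numbers 2, 4 and 5 had 0 to 1.745 CPM. Gata4-alone libraries had 17.96 to 284 CPM, Tbx5-alone 11.95 to 18.8 CPM, Mef2c-alone 5.31 to 8.71 CPM and single-factor inputs 30.8 to 71.9 CPM. The part of these differences, within and between the sets of cells, in the results was not tested. Gata4-alone sample 4 had a median log2 enrichment of -0.03 over all regions and 0.01 over the kept regions, where Gata4-alone samples 1 to 3 had 1.20 to 1.40. Its medians were thus near input level, although it departed from the inputs at single regions. The rule did not use it, and values are given with and without it.

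In the 3-factor cells, Gata4 enrichment at the gained regions was moderate. The median log2 enrichment was 0.74, with a range of 0.59 to 1.74, and 88 regions reached 1. In the Gata4-alone cells the median was 0.08, with a range of -1.95 to 0.58. Gata4-alone levels thus spread from far below input up to the threshold. Of the 682, 312 were below input level, 70 of them under -1, and 370 were at or above input level. The difference between 3-factor and Gata4-alone enrichment had a median of 0.78 and ran from 0.02 to 2.78. It exceeded 1 at 246 regions and 2 at 38, and was smaller than the threshold itself at 254. At the 312 regions below input level in Gata4-alone cells the median difference was 1.32, and at the 370 others it was 0.46.

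The regions that only just met the rule show how narrow some of these gains were. The region at chr10:17665930-17666136 (mm9) was included with a Gata4-alone enrichment of 0.5844, and that at chr10:79516496-79516745 was left out with 0.5857. At the other limit, chr10:23513633-23513976 was included with a 3-factor Gata4 enrichment of 0.58535 and chr8:117502212-117502761 was left out with 0.58487. For Tbx5 the nearest values were 0.583 inside, at chr12:25528224-25528948, and 0.5855 outside, at chr5:92010983-92011203. For Mef2c they were 0.572 inside, at chr1:87809930-87810221, and 0.597 outside, at chr10:118629624-118630093.

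Sample by sample, the median over the 682 gained regions was 56.2, 51.5, 50.4, 39.8 and 60.6 CPM in Gata4 samples 1 to 5 of the 3-factor cells, against 31.0, 27.1 and 26.4 CPM in Gata4-alone samples 1 to 3. The lowest 3-factor sample, number 4, was above the highest Gata4-alone sample. Gata4-alone sample 4 had a median of 31.4 CPM, the same as its median over all regions. The input medians at the gained regions were 29.0, 28.7 and 24.2 CPM in 3-factor cells and 31.3, 32.0 and 30.8 CPM in single-factor cells, so on library totals the Gata4-alone medians stood near input level there. With TMM scaling the median log2 enrichment at the gained regions was 0.96 in 3-factor cells and 0.44 in Gata4-alone cells, and Gata4 alone was above input at 492 of the 682 (72.1%), against 370 (54.3%) on totals. At the kept regions the 3-factor Gata4 samples had medians of 47.9 to 62.8 CPM, against 68.3 to 77.8 CPM in Gata4-alone samples 1 to 3. The ranges of the gained and the kept regions overlapped in the 3-factor cells and lay apart in the Gata4-alone cells, as the rule required.

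**Figure D1:**
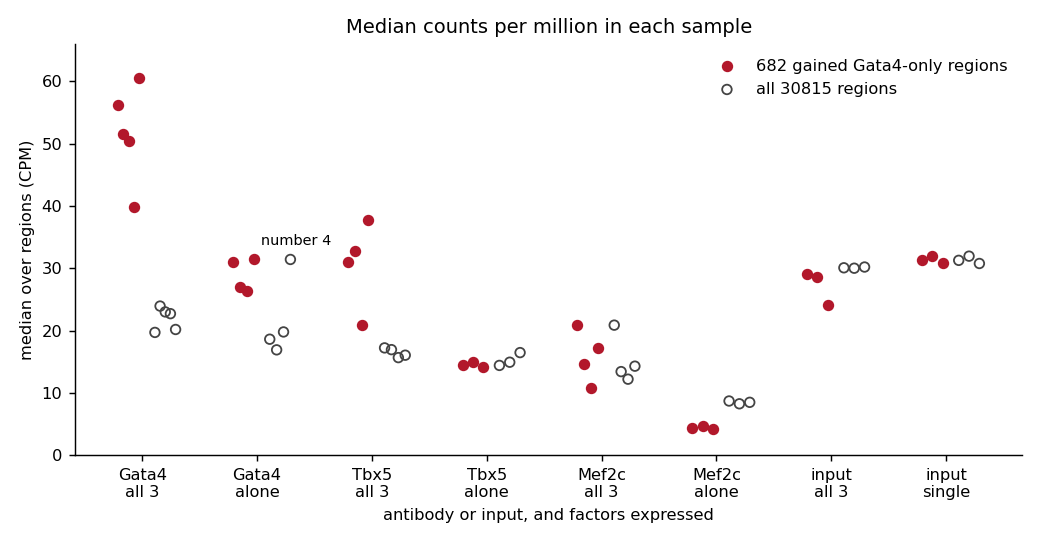
Median CPM over the 682 gained regions, with the median over all 30815 regions, in each ChIP and input sample, 3-factor samples first within each factor. Gata4 samples of the 3-factor cells lie at 39.8 to 60.6 CPM and Gata4-alone samples 1 to 3 at 26.4 to 31.0 CPM, close to the inputs.

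Single samples passed the threshold less regularly than the sums did. Of the 5 Gata4 samples of the 3-factor cells, all 5 passed at 72 gained regions, 4 at 226, 3 at 252, 2 at 123 and 1 at 9. Of Gata4-alone samples 1 to 3, none passed at 468 regions, 1 at 183 and 2 at 31. Every 3-factor Gata4 sample exceeded every one of Gata4-alone samples 1 to 3 at 277 of the 682 regions (40.6%), where the share over all 30815 regions was 18.9%. Against Gata4-alone sample 4, which the rule did not use, every 3-factor sample was higher at 416 gained regions (61.0%), with 24.5% over all regions, and against all 4 Gata4-alone samples at 201 (29.5%), with 7.01% over all regions. The regions were chosen for their 3-factor samples and for Gata4-alone samples 1 to 3, so nothing is read from any of these counts.

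When the rule was applied without 1 sample and that sample was then read at the regions so chosen, the left-out samples differed in how far they followed the others. The same summed input served for the choice and for the reading. Left-out 3-factor samples also shared their side of the Y-chromosome split with samples that chose the regions. The left-out samples were therefore not independent of the choice. Left-out 3-factor samples 1 to 5 passed the threshold at 71.9%, 54.8%, 54.7%, 33.1% and 73.6% of the regions chosen without them, where 15.6% to 22.5% of all regions passed in the same samples. Sample 4 was thus the weakest of the 5, and it was also the shallowest, with 352015 counts. The part of depth was not tested. At the kept regions, left-out 3-factor samples 1 to 5 passed at 90.7%, 57.0%, 72.7%, 52.9% and 72.2%, so sample 4 was closer to sample 2 there. Left-out Gata4-alone samples 1, 2 and 3 passed at 28.1%, 16.7% and 21.8% of the regions, where 20.4% to 21.99% of all regions passed, and their median log2 enrichments were 0.21, 0.01 and -0.01. At kept regions chosen without them, the same samples passed at 88.5%, 92.6% and 88.9%. A left-out Gata4-alone sample therefore passed at the gained regions about as often as at any region, although its median signal there was above the median of all regions, -0.67 to -0.54.

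**Figure D2:**
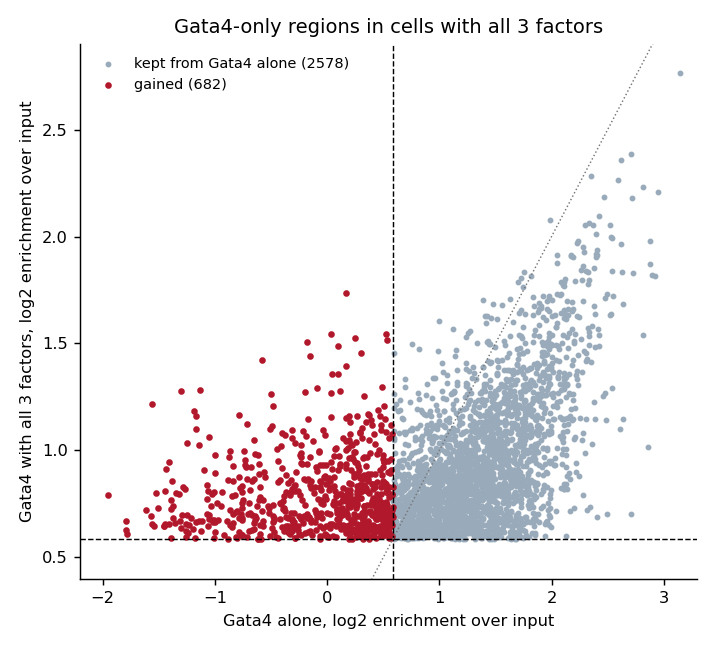
Log2 enrichment of Gata4 over input in 3-factor cells and in Gata4-alone cells for the 3260 regions that Gata4, but neither Mef2c nor Tbx5, bound in 3-factor cells, with the threshold as dashed lines. The 682 gained regions reach up to the threshold in the Gata4-alone cells and down to -1.95, and 370 of them lie at or above input level.

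Ranking by the difference picks regions with little Gata4 signal in the Gata4-alone cells, since the 3-factor enrichment of gained regions ended at 1.74. The 12 regions with the largest differences, among those where every 3-factor sample exceeded Gata4-alone samples 1 to 3, had differences of 2.33 to 2.78 and Gata4-alone enrichments of -1.95 to -1.13. They were 205 to 583 bp long. Gata4 in 3-factor cells stood at 0.61 to 1.28, so the Gata4-alone level was farther below input than the 3-factor level was above it at most of them.

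The largest difference was at chr10:43855112-43855509. Gata4 samples 1 to 5 of the 3-factor cells had 134, 140, 84.9, 108 and 163 CPM there, against 16.6, 13.5 and 15.4 CPM in Gata4-alone samples 1 to 3. The means were 126 ± 30.1 CPM in 3-factor cells (SD, n = 5) and 15.2 ± 1.52 CPM in Gata4-alone cells (SD, n = 3). The groups were far apart, with the lowest 3-factor sample well above the highest Gata4-alone sample. Gata4-alone sample 4 had 31.4 CPM, and the inputs ranged widely, from 46.4 to 103 CPM. Tbx5 at the same region averaged 63.5 ± 21.5 CPM in 3-factor cells (SD, n = 4) and 16.8 ± 3.77 CPM in Tbx5-alone cells (SD, n = 3), and Mef2c averaged 52.0 ± 24.2 CPM in 3-factor cells (SD, n = 4) and 6.72 ± 3.41 CPM in Mef2c-alone cells (SD, n = 3). All 3 ChIPs were thus higher in the 3-factor cells, while Tbx5 and Mef2c stayed under the threshold over this input.

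At chrX:102968570-102968786 the 3-factor Gata4 samples had 38.7, 29.9, 28.3, 48.3 and 24.4 CPM, against 0, 1.69 and 0 CPM in Gata4-alone samples 1 to 3. The Gata4-alone signal was a single count among 3 samples. The ratio of summed CPM was 50.4, with an exact 95% interval of 8.90 to 2006, which covers counting error only. The region was chosen for this difference, and the interval does not allow for that choice. Gata4-alone sample 4 held 17.96 CPM and the inputs 0 to 36.3 CPM. Tbx5 averaged 22.3 ± 9.59 CPM in 3-factor cells (SD, n = 4) and 14.1 ± 3.81 CPM in Tbx5-alone cells (SD, n = 3), and the samples of the groups overlapped.

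At chr14:58903531-58903825 the 3-factor Gata4 samples had 134, 67.0, 108, 68.2 and 83.9 CPM, against 14.5, 8.46 and 15.4 CPM in Gata4-alone samples 1 to 3, and 13.5 CPM in sample 4. Here sample 4 was low as well, so the groups did not overlap in any of the 4 Gata4-alone samples. Tbx5 had 44.8, 68.9, 44.9 and 46.8 CPM in 3-factor samples 2 to 5, against 22.7, 5.97 and 21.2 CPM in Tbx5-alone cells. The other 9 regions had mean Gata4 levels of 45.9 to 132 CPM in 3-factor cells and 5.52 to 22.4 CPM in Gata4-alone samples 1 to 3.

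Among those 9, chr8:11348722-11349090 and chr11:76718026-76718230 had the tightest 3-factor samples relative to their means. The first averaged 81.1 ± 6.23 CPM in 3-factor cells (SD, n = 5) and 12.3 ± 5.41 CPM in Gata4-alone cells (SD, n = 3). The second averaged 63.5 ± 8.57 CPM in 3-factor cells (SD, n = 5) and 8.47 ± 1.88 CPM in Gata4-alone cells (SD, n = 3). Their Tbx5 levels differed. Tbx5 averaged 49.4 ± 13.6 CPM in 3-factor cells (SD, n = 4) and 11.7 ± 2.73 CPM in Tbx5-alone cells (SD, n = 3) at the chromosome 8 region. At the chromosome 11 region Tbx5 averaged only 14.5 ± 1.58 CPM in 3-factor cells (SD, n = 4) and 3.46 ± 2.18 CPM in Tbx5-alone cells (SD, n = 3). The ratio of summed Tbx5 CPM, 3-factor over Tbx5-alone cells, was similar, 4.05 at the chromosome 8 region (exact 95% interval for counting error 2.40 to 7.38) and 4.53 at the chromosome 11 region (1.68 to 17.2). The region at chr8:107128478-107129060 had 128, 192, 122, 36.9 and 184 CPM in the 3-factor cells, against 22.8, 20.3 and 24.2 CPM in Gata4-alone samples 1 to 3. Its Gata4-alone sample 4, at 103 CPM, exceeded 3-factor sample 4.

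**Figure D3:**
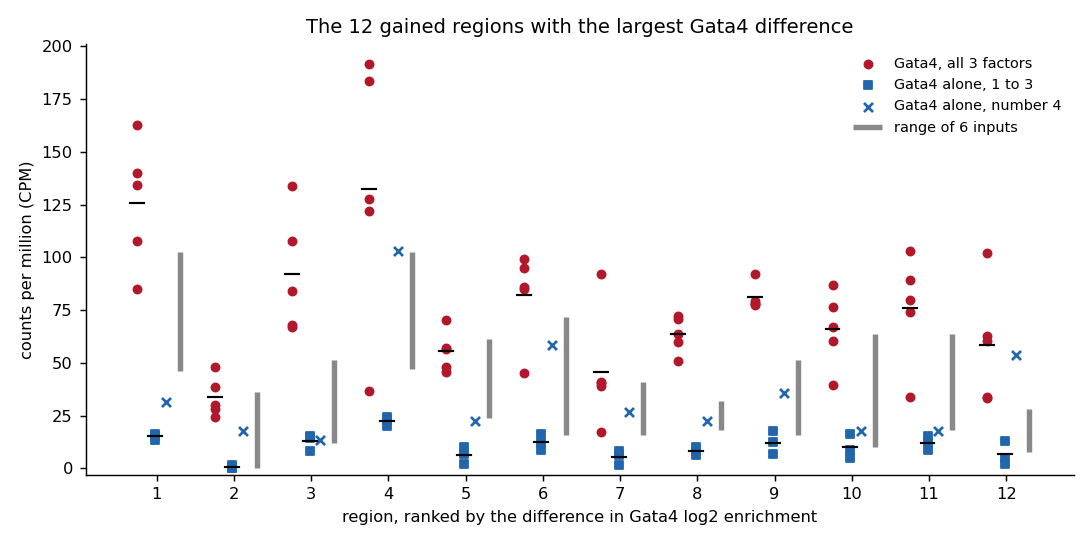
Gata4 CPM in every sample at the 12 gained regions with the largest difference between 3-factor and Gata4-alone cells, among those where every 3-factor sample exceeds Gata4-alone samples 1 to 3. Gata4-alone sample 4 is shown as crosses, means as black lines and the range of the inputs as grey bars. Sample 4 was not part of this condition and exceeds the lowest 3-factor sample at some of the regions. At the first region, on chromosome 10, the 3-factor samples lie at 84.9 to 163 CPM and Gata4-alone samples 1 to 3 at 13.5 to 16.6 CPM.

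The regions with the highest Gata4 enrichment in 3-factor cells were others. The 6 highest had enrichments of 1.51 to 1.74 with 3 factors and -0.18 to 0.53 in Gata4-alone cells, and differences of 0.98 to 1.69. In 4 of these 6 the 3-factor samples overlapped Gata4-alone samples 1 to 3. The highest, chr14:105803510-105803843, had 173, 99.4, 165, 51.1 and 104 CPM in 3-factor cells, against 43.5, 25.4 and 57.2 CPM in Gata4-alone cells, where 3-factor sample 4 fell among the Gata4-alone samples. At chr15:93355796-93356099 there was no overlap, with a mean of 150 ± 37.2 CPM in 3-factor cells (SD, n = 5) and 55.6 ± 9.27 CPM in Gata4-alone cells (SD, n = 3). At chr15:87792688-87792920 the input was low, 5.597 CPM on average. Its Gata4 level was 27.0 ± 16.3 CPM in 3-factor cells (SD, n = 5) and 12.3 ± 8.45 CPM in Gata4-alone cells (SD, n = 3), with overlap.

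The region at chr5:10196903-10197178 divided the 3-factor samples among themselves. Gata4 stood at 134, 97.3 and 193 CPM in samples 1, 3 and 4 and at 26.3 and 26.6 CPM in samples 2 and 5, against 10.3, 27.1 and 33.0 CPM in Gata4-alone samples 1 to 3. Samples 2 and 5 thus lay within the Gata4-alone range. Tbx5 at this region was 37.3 ± 19.4 CPM in 3-factor cells (SD, n = 4) and 158 ± 39.2 CPM in Tbx5-alone cells (SD, n = 3), so it was a site of Tbx5 in the cells given Tbx5 alone.

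In a fit across all regions (edgeR's quasi-likelihood test, Benjamini-Hochberg adjusted p under 0.05), Gata4 was higher in 3-factor than in Gata4-alone cells at 284 of the 678 gained regions that passed the filter on low counts and lower at 0, which was also the number lower by DESeq2 and the number lower at an unadjusted p under 0.05 by either. Over all 20759 regions tested, 16.5% were higher and 15.2% lower. Since the rule used this contrast, nothing is read from the count. It was 377 without Gata4-alone sample 4 and 171, 170 or 172 without Gata4-alone sample 1, 2 or 3. With Gata4 libraries 1, 3 and 6 alone it was 158, and with 2, 4 and 5 alone 170.

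Although called unbound by Tbx5, most gained regions held more Tbx5 signal than input. In 3-factor cells the median log2 enrichment of Tbx5 was 0.14 at the gained regions, -0.45 at the kept regions and -0.67 over all regions. Enrichment above 0 was found at 440 gained regions (64.5%), against 27.4% of kept regions and 35.1% of all regions. Mef2c was lower: its median was -0.70 at the gained regions, against -0.91 over all regions and -1.10 at the kept regions, and 117 gained regions (17.2%) were above 0, against 7.72% of kept and 31.8% of all regions. These levels depended on the scaling. With TMM, Tbx5 was above input at 87.2% of gained, 48.8% of kept and 44.6% of all regions, with a median of 0.60 at the gained regions. Mef2c was then above input at 47.4% of gained, 24.6% of kept and 43.0% of all regions, with a median of -0.06 at the gained regions, so its share above input was below that of all regions on totals and above it with TMM. On library totals, Gata4 exceeded Tbx5 by more than the size of the threshold at 392 gained regions, and at the rest the margin between the factors was smaller. All enrichments share the same summed input, and the rule capped Tbx5 and Mef2c at the threshold in gained and kept regions alike.

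In single-factor cells the medians of both of these factors were below input level at the gained regions, and that of Tbx5 was near its median over all regions. The median log2 enrichment was -0.82 for Tbx5 alone, against -0.86 over all regions, and -1.84 for Mef2c alone, against -1.40 over all regions. With TMM scaling these were -0.30 against -0.33 for Tbx5 alone and -0.94 against -0.36 for Mef2c alone. On library totals and by the same threshold, 44 gained regions (6.45%) were bound by Tbx5 alone, against 20.5% of all regions and 6.09% of kept regions. Mef2c alone bound 6 (0.880%), against 19.1% of all regions and 1.09% of kept regions. No region was bound by both, and 50 (7.33%) were bound by either. The gained regions resembled the kept regions in these shares, and both had fewer such sites than the regions as a whole. The rule had removed regions bound by Mef2c or Tbx5 in cells given all the factors from both classes. Their lower shares are therefore not independent of the choice, and nothing is read from the comparison with all regions.

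Tbx5 and Mef2c signal was higher in 3-factor than in single-factor cells at most gained regions. Tbx5 enrichment was higher with 3 factors at 584 gained regions (85.6%), against 54.4% of kept and 51.4% of all regions, and the median difference was 0.90, against 0.05 at the kept regions and 0.02 over all regions. Mef2c enrichment was higher at 662 (97.1%), against 86.0% of kept and 68.1% of all regions, with a median difference of 0.99 at the gained regions, 0.39 at the kept and 0.31 over all regions. With TMM scaling the medians for Tbx5 were 0.80 at the gained regions, -0.04 at the kept regions and -0.08 over all regions. Those for Mef2c were 0.71, 0.06 and -0.08. The differences varied with the Gata4-alone level: where Gata4 alone was below input, the median Tbx5 difference was 1.08 and the Mef2c difference 1.19, and where it was at or above input they were 0.65 and 0.83.

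By sample, the Tbx5 medians over the gained regions were 31.0, 32.8, 20.9 and 37.7 CPM in 3-factor samples 2 to 5, against 14.4, 14.9 and 14.1 CPM in the Tbx5-alone samples. Every 3-factor sample was above every Tbx5-alone sample, with sample 4 the lowest. Over all regions the medians were much closer, 15.7 to 17.2 CPM with 3 factors, against 14.4 to 16.5 CPM in Tbx5-alone cells. For Mef2c the medians over the gained regions were 20.9, 14.7, 10.8 and 17.2 CPM in 3-factor samples, against 4.36, 4.65 and 4.25 CPM in Mef2c-alone samples. Over all regions these were 12.2 to 20.9 CPM with 3 factors, against 8.26 to 8.71 CPM in Mef2c-alone cells, so Mef2c had a general shift in the same direction.

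**Figure D4:**
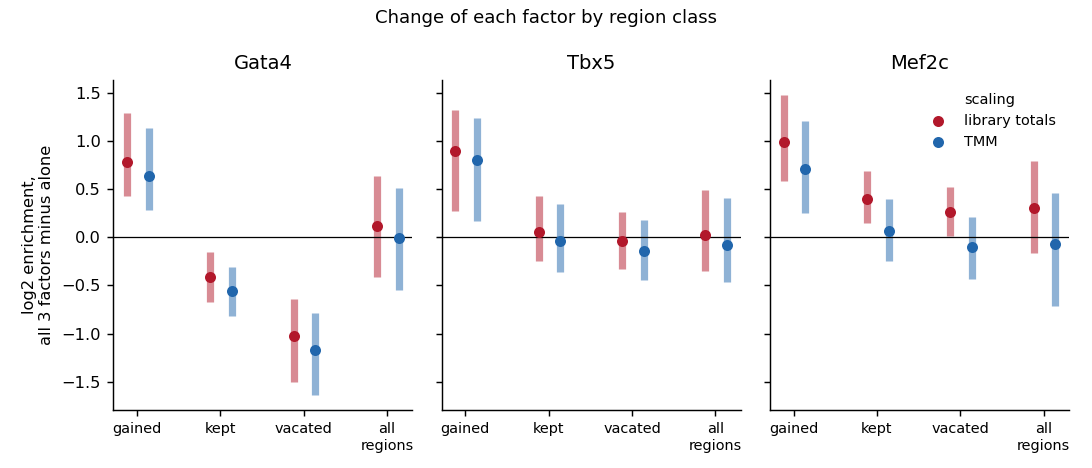
Median (points) and quartiles (bars) of the difference in log2 enrichment, 3-factor minus single-factor cells, for Gata4, Tbx5 and Mef2c at the gained regions, the kept regions, the 2576 regions bound in Gata4-alone cells and by no factor in 3-factor cells (vacated) and all regions, on library totals and with TMM scaling. At the gained regions the Tbx5 median is 0.90 on totals and 0.80 with TMM, where all regions lie at 0.02 and -0.08.

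Tested region by region, Tbx5 was higher in 3-factor than in Tbx5-alone cells at 247 of the 682 gained regions (36.2%) and lower at 15, when no filter on low counts was set (edgeR's quasi-likelihood test, Benjamini-Hochberg adjusted p under 0.05 over 30814 regions). Over all regions 9.81% were higher and 7.73% lower, and at the kept regions 133 of 2577 (5.16%) were higher and 46 lower. With the filter, 250 were higher and 16 lower of 594 tested, with 18.8% and 14.9% over all regions. Mef2c was higher in 3-factor than in Mef2c-alone cells at 265 of the 682 (38.9%) and lower at 13 without a filter, with 14.3% higher and 22.7% lower over all regions. At the kept regions, 159 of 2577 (6.17%) were higher and 80 lower. With the filter, 331 gained regions were higher and 6 lower of 450 tested, with 31.3% and 28.8% over all regions. On library totals the filtered Mef2c counts were 378 higher and 2 lower, and those over all regions 7566 higher and 4256 lower, in place of 6071 and 5577 with TMM. The rule bounded the 3-factor side of both comparisons from above, and whether the gained and kept regions differ was not tested. It also chose regions for high Gata4 in 3-factor cells. Same-numbered 3-factor samples deviated together, with r of 0.19 to 0.41 between Gata4 and Tbx5 and 0.11 to 0.39 between Gata4 and Mef2c. These shares are therefore not independent of the choice. With the filter, a region could also enter through the counts of 1 group alone. The count of Tbx5 calls of either direction, 266 with the filter, was 158 without 3-factor sample 3 and 149 without sample 5, and 171, 167 or 173 without Tbx5-alone sample 1, 2 or 3.

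The rule used no Mef2c-alone or Tbx5-alone sample, but it removed regions bound by Mef2c or Tbx5 in 3-factor cells, so the comparison of these samples with each other is given beside that at the kept regions, where the same limit held. Tbx5 was the stronger of the pair at most gained regions that differed. Without a filter, 45 of 681 gained regions (6.61%) were higher for Mef2c alone and 182 (26.7%) for Tbx5 alone (edgeR's quasi-likelihood test, Benjamini-Hochberg adjusted p under 0.05), with 33.2% and 27.9% over all regions. At the kept regions the shares were 7.53% higher for Mef2c alone and 18.7% for Tbx5 alone. With the filter, 27 of 247 gained regions tested (10.9%) were higher for Mef2c alone and 174 (70.4%) for Tbx5 alone, against 13.5% and 55.9% of 993 kept regions and 45.4% and 45.5% of all regions. The share higher for Mef2c was below that of all regions with and without the filter, at gained and kept regions alike. The share higher for Tbx5 was above that of all regions only with the filter. The median gained region held 4 to 4.5 counts in the Mef2c-alone samples and 5 to 7 in the Tbx5-alone samples. At such counts a region could pass the filter through 1 group alone, so nothing is read from the filtered shares. Whether the gained and kept regions differ in these shares was not tested. The antibody differed along with the factor, so the factor and its antibody cannot be told apart.

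Of the regions named for this comparison, the strongest towards Mef2c was chr3:101392352-101392558. Mef2c-alone samples had 54.4, 51.6 and 58.4 CPM there, against 10.3, 0 and 7.06 CPM in Tbx5-alone samples, a log2 fold change of 3.73 ± 0.44 (SE, edgeR adjusted p = 3.18e-10). Next were chr8:46930292-46930535, with a log2 fold change of 3.37, and chr1:87809930-87810221, with 3.36. Mef2c at the chromosome 8 region stood at 33.9, 78.0, 44.2 and 80.3 CPM in 3-factor samples 2 to 5, against 91.5, 68.2 and 63.7 CPM in the Mef2c-alone cells, which overlapped. Regions such as this held Mef2c in single-factor cells and Gata4 above threshold only with 3 factors.

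The strongest towards Tbx5 was chr5:10196903-10197178, named above for its Gata4 signal. Mef2c-alone samples had 5.44, 2.07 and 3.19 CPM and Tbx5-alone samples 119, 155 and 198 CPM, a log2 fold change of -4.73 ± 0.38 (SE, edgeR adjusted p = 5.63e-15). At chr2:103432451-103432657 the Mef2c-alone samples held 3 counts in all. The ratio of summed CPM was 38.6 for Tbx5 over Mef2c, with an exact 95% interval of 12.5 to 193 for counting error. That interval does not allow for the choice of the region by its fold change. At chr2:181078292-181078498 and chr3:100638021-100638236 the log2 fold changes of Mef2c over Tbx5 were -4.25 and -4.02. At the chromosome 3 region, Gata4 had 54.0, 49.1, 49.6, 134 and 51.0 CPM in 3-factor cells, against 12.4, 10.2 and 15.4 CPM in Gata4-alone samples 1 to 3. Its Tbx5 level was 36.2, 41.3, 53.3 and 32.8 CPM in 3-factor cells, against 53.6, 77.7 and 49.4 CPM in Tbx5-alone cells. Gata4-alone sample 4 had 40.4 CPM there, below every 3-factor sample. Gata4 was thus higher in the 3-factor cells, while the Tbx5 samples of the groups overlapped.

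No gained region was called different in input. The 3-factor inputs against the single-factor inputs gave 0 called of 21 gained regions that passed the filter (edgeR's quasi-likelihood test), where 0% of 853 regions were called. At an unadjusted p under 0.05 there were 2 gained regions of the 21 and 43 of the 853, and DESeq2 called 0, with 1 and 29 at unadjusted p. Without a filter, edgeR called 0 of 682, and 27 had an unadjusted p under 0.05. The inputs were shallow, at 97474 to 732866 counts after merging. The median gained region held 3 to 4 counts in each single-factor input, and most gained regions did not pass the filter. Differences in input, and not only small ones, could thus go undetected at this depth.

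The gained regions were close to the others in median width. Their median width was 245 bp, against 255 bp at the kept regions and 234 bp over all regions, which range from 201 to 1484 bp. Regions of the minimum width of 201 bp were rarer, at 7 (1.03%), against 1.20% of kept and 17.9% of all regions, and 36 (5.28%) were 500 bp or longer, against 5.03% of all. The median input level was 29.2 CPM, against 26.8 CPM at the kept regions and 30.3 CPM over all. By chromosome the gained share ran from 1.69% of the regions on chromosome 6 to 2.94% on chromosome 9. Chromosome 2 held most, 62, followed by chromosome 11 with 58, and none of the 5 regions on chromosome Y was gained.

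Many gained regions had another region close by. A neighbour within 10000 bp was found for 348 of the 682 (51.0%), against 49.7% of kept and 43.9% of all regions. The neighbours that were not themselves gained were read in the same Gata4 samples that chose the gained regions. The rule also set which neighbours were not gained, so their values are not independent of the choice. In the same edgeR fit, Gata4 was higher in 3-factor cells at 82 of the 256 of them that were tested (32.0%) and lower at 12 (4.69%), where 16.5% and 15.2% of all regions were called. Of the 348 gaps, 129 were under 1000 bp, a distance at which neighbours may share sonicated fragments. With gaps of at least 1000 bp, 41 of 154 neighbours (26.6%) were higher and 12 (7.79%) lower. Without a filter on low counts, 81 of 325 neighbours (24.9%) were higher and 17 (5.23%) lower, against 11.2% and 10.5% of all regions. With gaps of at least 1000 bp these were 40 of 208 (19.2%) and 17 (8.17%). Over the 325 neighbours that were not themselves gained, the median difference between 3-factor and Gata4-alone enrichment was 0.45, against -0.14 for such neighbours of kept regions and 0.13 for those of all regions. Tbx5 bound 36.9% of these 325 in 3-factor cells, against 30.7% of such neighbours of all regions.

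Gained regions also lay next to each other, with 14 gaps of at most 10000 bp between 2 of them. The closest were chr15:87792470-87792670 and chr15:87792688-87792920, 17 bp apart, chr14:31662201-31662442 and chr14:31662506-31662710, 63 bp apart, and chr5:22091545-22091749 and chr5:22091823-22092029, 73 bp apart. At such distances the same fragments can count towards both. The chromosome 14 pair had Gata4 enrichments of 0.91 and 0.64 in 3-factor cells, against -1.43 and -1.06 in Gata4-alone cells.

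The number of gained regions depended on the scaling more than on any single sample. It was 263 with TMM and 1021 when each set of cells was compared with its own inputs, with 445 shared. A threshold of 1 gave 363, with 88 shared. Other pseudocounts gave 687 and 643 regions, and leaving out single samples gave 607 to 800.

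**Figure D5:**
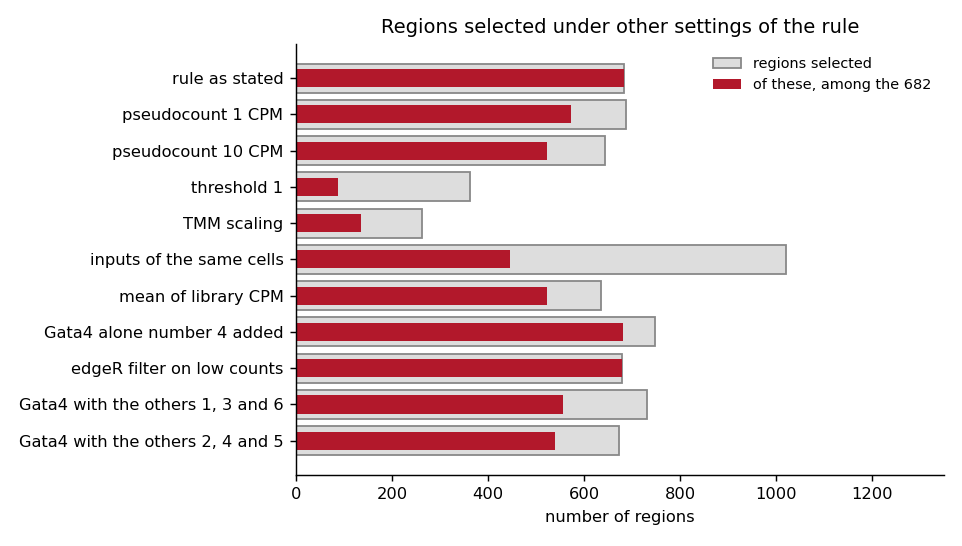
Number of regions selected by the rule under each setting (wide bars) and how many of them are among the 682 (narrow bars). TMM scaling gives 263 regions with 135 shared, and comparing each set of cells with its own inputs gives 1021 with 445 shared.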

How the data were processed

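Counts per region in the merged table of 30815 regions were deposited by the authors as raw read counts, not normalised. Per the submitters' processing notes the tools were FastQC, Bowtie2 2.2.4 and featureCounts, with genome mm9, and how the regions were called is not given in the sources used here. Libraries of a group that did not differ in chi-square tests of counts, over regions with at least 10 counts in the pair, were summed. Such a test does not show that they are duplicates. The gained regions and every list were chosen with earlier results of these data known. Tests used edgeR 4.0.16 in R 4.3.3 (TMM, filterByExpr with a minimum count of 10 and total of 15, glmQLFit, Benjamini-Hochberg over all regions), with DESeq2 1.42.0 as an alternative, and Python 3.11.15 with pandas 2.3.3, numpy 2.4.6 and scipy 1.17.1. They were tested on simulated data. P-values measure the spread between libraries of 1 cell line.

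The named regions included the 12 with the largest Gata4 difference among those where every 3-factor sample exceeded Gata4-alone samples 1 to 3. The others were the 6 with the highest 3-factor Gata4 enrichment, the nearest 2 on each side of each limit (1 is printed), up to 4 per direction for Mef2c alone against Tbx5 alone, and the 3 closest pairs. The comparisons of Tbx5 and of Mef2c between 3-factor and single-factor cells, the neighbours, the left-out samples and the TMM medians and shares were added after seeing the data. Scaling moved the median log2 fold change of all regions from 0.15 with TMM to 0.47 on totals for Mef2c with 3 factors over alone, and from -0.08 to -0.84 for Mef2c alone over Tbx5 alone. Matching regions to genes and the planned motif search needed an mm9 genome and were not done. Alternatives were other pseudocounts, thresholds, scalings, filters, inputs and left-out samples.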

Additional observations from a re-analysis of the deposited data

Results flagged for a closer look

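Sets of 4 or 5 replicate samples were examined for 1 sample far from the rest by Dixon's test, 1 set for each of 4 groups at each of the 18 regions named for their Gata4 difference or enrichment, and 1 for each group's medians over the gained regions. Of these 76 sets 12 held one, all at single regions. Chance gives about 1 in 20 where values did not choose the sets. In 4 of the 12 the sample was Gata4-alone number 4, high in each. The regions were chosen for low levels in Gata4-alone samples 1 to 3 and not in sample 4, so the chance share does not apply there. It had 31.4 CPM at chr10:43855112-43855509, where the others had 13.5 to 16.6, and 17.96 CPM at chrX:102968570-102968786, where they had 0 to 1.69. It had 103 CPM at chr8:107128478-107129060, where the others had 20.3 to 24.2, and 58.4 CPM at chr2:147943283-147943537, where they had 8.80 to 16.6. Its part in these values was not tested.

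In 3-factor cells, Gata4 sample 4 was low at chr2:147943283-147943537, with 45.5 CPM where the others had 84.9 to 99.4, and at chr12:78010251-78010457, with 22.7 CPM where they had 72.6 to 90.6. It was high at chr15:93355796-93356099, with 213 CPM where the others had 122 to 148. Gata4 sample 2 was high at chr8:11348722-11349090, with 92.2 CPM where the others had 77.4 to 79.5. Tbx5 sample 3 of the 3-factor cells had 68.9 CPM at chr14:58903531-58903825, where the others had 44.8 to 46.8, and Tbx5 sample 4 had 63.7 CPM at chr15:93355796-93356099, where they had 46.8 to 48.7. At chr15:87792688-87792920, Gata4-alone sample 2 had 21.995 CPM where the others had 6.60 to 8.98. At the same region, Tbx5 sample 5 had 0.698 CPM where the other 3-factor samples had 0, a single count.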

How the results depend on the processing

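The number of regions meeting the rule was 363 at a threshold of 1 and 263 with TMM scaling, and 607 to 800 without single samples. The number bound by Mef2c alone or Tbx5 alone was 21 at a threshold of 1, 17 with TMM and 174 with the inputs of the same cells, and 39 to 59 without single samples. Gata4 calls among the gained regions were 158 with libraries 1, 3 and 6, 170 with 2, 4 and 5, and 170 to 377 without single samples. The cause of these changes was not tested. Without single samples, Tbx5 calls between 3-factor and Tbx5-alone cells ranged from 149 to 361, Mef2c calls between 3-factor and Mef2c-alone cells from 230 to 331, calls between Mef2c alone and Tbx5 alone from 177 to 245, and input calls stayed at 0. Same-numbered samples of the groups compared did not deviate together (r of -0.28 to 0.21 between Gata4 groups), so the numbers do not pair them. Same-numbered samples of different factors within the 3-factor cells did (r of 0.11 to 0.55). No test compared these groups with each other, but the rule chose regions for high 3-factor Gata4. The Tbx5 and Mef2c calls between 3-factor and single-factor cells are therefore not independent of the rule. With the replicate number as a block, Gata4 calls were 164 in place of 284, Tbx5 calls 260 in place of 266, Mef2c calls 289 in place of 337, and calls between Mef2c alone and Tbx5 alone 196 in place of 201. Over all settings tried, 96 of these counts stayed within 1.5 times of the value reported and 16 did not. With the inputs of the same cells, the Gata4 difference at chr12:78010251-78010457 reversed, from 0.98 to -0.17. All 80 alternatives for the 8 regions named for Mef2c alone against Tbx5 alone kept their direction and their side of the threshold. Shallow libraries limit single regions: 1 count is worth 4.49 CPM in Gata4-alone sample 4 and 10.3 CPM in the shallowest input.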
